A study of Mus musculus with 4 samples.

Results

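The nuclear genes for the 5 complexes of oxidative phosphorylation were examined by RNA sequencing of primary cell cultures grown from mouse inner ear. Members were the gene symbols that begin with the names of complex I (Ndufa, Ndufb, Ndufc, Ndufs and Ndufv), complex II (Sdha to Sdhd), complex III (Uqcr), complex IV (Cox4 to Cox8) and complex V (Atp5) genes. The rule found 84 genes among the 24346 in the files, and it used no measured value. The study set 2 libraries from cultured vestibular cells against 2 from cultured cochlear cells, to find genes expressed differently by cells from the balance organs and from the hearing organ. The labels give no strain, age, sex, treatment or genetic change for either group. They do not say whether the 2 libraries of a group came from separate cultures or animals, so every p-value measures only the spread between these libraries, which may be technical.

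The respiratory chain sits in the inner mitochondrial membrane. Complex I takes electrons from NADH and complex II takes them from succinate, both hand them to coenzyme Q, complex III passes them on to cytochrome c, and complex IV gives them to oxygen. Complexes I, III and IV pump protons, and complex V, the ATP synthase, lets them flow back to make ATP. In the inner ear this machinery is best known from the energy demand of hair cells and of the stria vascularis and from hearing loss in mitochondrial disease. Complexes I, III, IV and V also hold subunits encoded by mitochondrial DNA. None of those 13 genes was matched by symbol in the files, so the values below describe the nuclear side alone.

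Many respiratory chain promoters carry binding letters of NRF1, of GABPA (also called NRF-2, an ETS family factor) and of YY1, which are known regulators of this gene group. RefSeq promoter windows (GRCm38.p6, 250 bases before to 50 bases after a start) were found for 66 of the 84 members, 71 windows in all. They were searched on both strands for GCATGCGC (NRF1), CCGGAAG (GABPA and other ETS factors) and AANATGGC (YY1). At least 1 of the 3 occurred in 35 of the 71 member windows (49.3%), against 26.2% of the 12766 windows of genes tested and 16.1% of all 32851 windows. The NRF1 letters were in 14.1% of member windows and 4.93% of windows of genes tested, the ETS letters in 22.5% and 16.6%, and the YY1 letters in 22.5% and 7.94%. Matches of different motifs shared no bases in any member window, and no window held all 3. By complex, windows with a match numbered 18 of 33 for complex I, 2 of 3 for complex II, 3 of 5 for complex III, 4 of 14 for complex IV and 8 of 16 for complex V. A window with matches to 2 of the motifs is printed for each of 4 complexes, with matches in capitals; Atp5j and Atp5l of complex V and Sdhb also had such windows, and in complex V the most abundant of these 3 was taken. These are Ndufs8, an iron-sulfur subunit of complex I (chr19:3912725-3913024, minus strand), Uqcr11, a small subunit of complex III (chr10:80406772-80407071, minus strand), Cox6a1, the widely expressed form of a complex IV subunit (chr5:115348909-115349208, minus strand), and Atp5k, subunit e of the ATP synthase (chr5:108434350-108434649, minus strand).
Ndufs8: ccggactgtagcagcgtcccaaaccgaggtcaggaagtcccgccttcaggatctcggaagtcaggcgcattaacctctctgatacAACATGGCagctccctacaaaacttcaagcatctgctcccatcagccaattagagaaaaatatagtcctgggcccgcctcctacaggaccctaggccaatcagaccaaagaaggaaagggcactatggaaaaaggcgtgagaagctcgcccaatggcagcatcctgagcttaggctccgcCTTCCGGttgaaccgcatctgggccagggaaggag
Uqcr11: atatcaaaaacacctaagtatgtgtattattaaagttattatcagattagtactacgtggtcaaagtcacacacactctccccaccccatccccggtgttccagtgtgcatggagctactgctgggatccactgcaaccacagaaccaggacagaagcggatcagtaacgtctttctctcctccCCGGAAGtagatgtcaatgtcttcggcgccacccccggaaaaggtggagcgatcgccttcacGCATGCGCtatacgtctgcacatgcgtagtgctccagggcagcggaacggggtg
Cox6a1: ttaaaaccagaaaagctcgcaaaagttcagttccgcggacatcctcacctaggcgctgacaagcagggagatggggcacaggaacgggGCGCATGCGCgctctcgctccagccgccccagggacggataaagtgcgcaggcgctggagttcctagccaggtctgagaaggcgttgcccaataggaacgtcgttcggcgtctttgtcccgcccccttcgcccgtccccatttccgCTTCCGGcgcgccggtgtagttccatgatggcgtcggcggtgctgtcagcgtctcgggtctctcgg
Atp5k: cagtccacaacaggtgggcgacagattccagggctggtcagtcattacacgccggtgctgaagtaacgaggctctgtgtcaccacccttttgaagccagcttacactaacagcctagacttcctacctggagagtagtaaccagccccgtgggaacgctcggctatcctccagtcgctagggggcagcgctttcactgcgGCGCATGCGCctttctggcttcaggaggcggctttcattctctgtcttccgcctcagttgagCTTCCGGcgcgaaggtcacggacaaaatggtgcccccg
Ndufs8 held the YY1 letters from base 86 of the window and the ETS letters, on the opposite strand, from base 266, just past the start. In Uqcr11 the ETS letters began at base 185 and the NRF1 letters at base 247, next to the start. Cox6a1 and Atp5k each held the NRF1 letters on both strands in overlapping matches, from bases 89 and 91 in Cox6a1 and from bases 201 and 203 in Atp5k. Both also held the ETS letters close to the start, at base 235 in Cox6a1 and base 263 in Atp5k. A match describes the sequence and does not show that a factor was bound. Ndufs8 had 62.2 and 67.2 FPKM in the vestibular pair of libraries, against 62.7 and 80.2 in the cochlear pair, so its groups overlapped. The other 3 genes had both cochlear libraries above both vestibular ones, as described with their complexes below.

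Levels are in FPKM, a fragment count scaled to the length of the transcript and to the size of the library, so those of different genes can be set side by side per length. Each pair of values is given as library 1, then library 2. Differences were taken on the log2(FPKM + 1) scale as vestibular minus cochlear, so a negative value is higher in cochlear cultures, and low genes have their difference understated. The fit used limma on the 13200 genes whose FPKM averaged at least 1, with Benjamini-Hochberg adjustment over all of them and a threshold of 0.05. An exact 2-sided permutation test of 2 libraries against 2 cannot go below p = 0.333, so any call rests on spread shared across genes. How many fragments each library held is unknown, and the values carry no counting interval. The summed FPKM of all genes was 519120 and 513160 in the vestibular pair, against 516230 and 479380 in the cochlear pair.

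The cultures were mixed. Of 18 epithelial markers, 17 had both cochlear libraries above both vestibular ones, with median log2 levels of 4.97 and 2.57 in the vestibular pair, against 6.31 and 6.82 in the cochlear pair. Of 15 fibroblast markers, 14 had both vestibular libraries above. Vestibular library 2 was lower than vestibular library 1 in most epithelial markers, such as Krt8 at 10.5 against 297 FPKM. Cdh1, at 33.9 against 32.2, and Ocln, at 5.93 against 6.28, were nearly level between these libraries. Markers of cartilage in vestibular library 2 summed to 4391 FPKM, against 557 to 1089 in the other libraries. Those of inner ear fibrocytes and otic mesenchyme summed to 3687, against 550 to 843. Abundant genes made up much of these sums, such as Col2a1 at 2365 and Car3 at 1569 FPKM. Of the same lists, Lect1 at 33.7, Tbx1 at 12.2 and Emilin2 at 7.53 FPKM went the other way and were lowest in that library. Lect1 had 853 FPKM in cochlear library 2. Cochlear library 2 stood apart in macrophage markers, whose median log2 level was 0.71 there and 7.77 to 8.42 in the other libraries. Hair cell and sensory epithelium markers were mostly sparse: 5 of 13 had a mean FPKM of at least 1, and the hair cell transcription factor Atoh1 was at 0.10 or less in every library. Of the 5, 3 were higher in vestibular and 2 in cochlear cultures. The list summed to 34.5 and 24.8 FPKM in the vestibular pair, against 44.1 and 138 in the cochlear pair. Otoa made up much of the cochlear sums, with 9.40 and 3.61 FPKM in the vestibular pair, against 29.0 and 128.5 in the cochlear pair. Summed over the list, fibroblast markers reached 5762 and 12019 FPKM in the vestibular pair, against 2757 and 2471 in the cochlear pair, and epithelial markers 1252 and 163, against 2470 and 3051. The part of these cell types in the values below was not tested. The median difference and the counts of members apart are also given without each library in turn.

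Respiratory chain genes were slightly higher in the cochlear cultures, in 4 of the 5 complexes. Of the 84 members, 80 passed the filter on low values, 68 had a mean FPKM of at least 50 and 45 had a mean of at least 100. Of these 80, 70 had the higher mean in the cochlear libraries. In 53 of the 80 (66.25%) both cochlear libraries lay above both vestibular ones, against 28.4% of all genes tested. The reverse held for 1 of 80, the testis form Cox6b2, against 26.9% of all genes tested. Among genes averaging at least 50 FPKM, 47 of 68 members (69.1%) had both cochlear libraries above, against 31.2% of the 1713 genes at that level. The median log2 difference of the members was -0.19, and it was 0.01 over all genes tested. Taken separately on the FPKM scale, the median excess of the cochlear over the vestibular group mean was 13.4%.

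No member passed the test. Limma with Benjamini-Hochberg adjustment called 4 of the 13200 genes (0.0303%) and 0 of the 80 members, and the smallest adjusted p among members was 0.0744. At an unadjusted p under 0.05 there were 9 members higher in cochlear cultures, or 9 of 80 where 10.6% of all genes tested met the same rule, so this share was close to the background. No member was higher in vestibular cultures at that level, where 7.61% of all genes tested were. The median log2 difference of the members was -0.24 without cochlear library 1 and -0.15 without cochlear library 2. Fewer cells of a type and less RNA per cell cannot be told apart in these bulk profiles.

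The difference was small and even across most members. It was under 0.2 on the log2 scale in 41 of the 80 and over 0.5 in 8, with a range from -1.55 for Cox7a1 to 0.67 for Cox6b2. The libraries of a group lay close together for these genes: the median gap between replicates was a log2 of 0.10 between vestibular and 0.12 between cochlear libraries, against 0.22 and 0.17 over all genes tested. Median log2 levels of the members were 6.69 and 6.59 in the vestibular pair, against 6.79 and 6.97 in the cochlear pair. Over all genes tested these medians were only 3.68 to 3.72, and no replicate gap was taken over genes of a like level. Cochlear library 2 held the highest value of 51 members and vestibular library 2 the lowest of 47. All 4 pairings of a vestibular with a cochlear library gave a negative median. It was smallest between libraries 1, at -0.11 with 61 members higher in the cochlear library, and largest between libraries 2, at -0.25 with 73. Leaving out 1 library at a time gave medians from -0.24 to -0.15, and both groups stayed apart on the cochlear side in 57 to 66 of the 80 members, where 36.8% to 40.3% of all genes tested did so with 3 libraries.

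**Figure D1:**
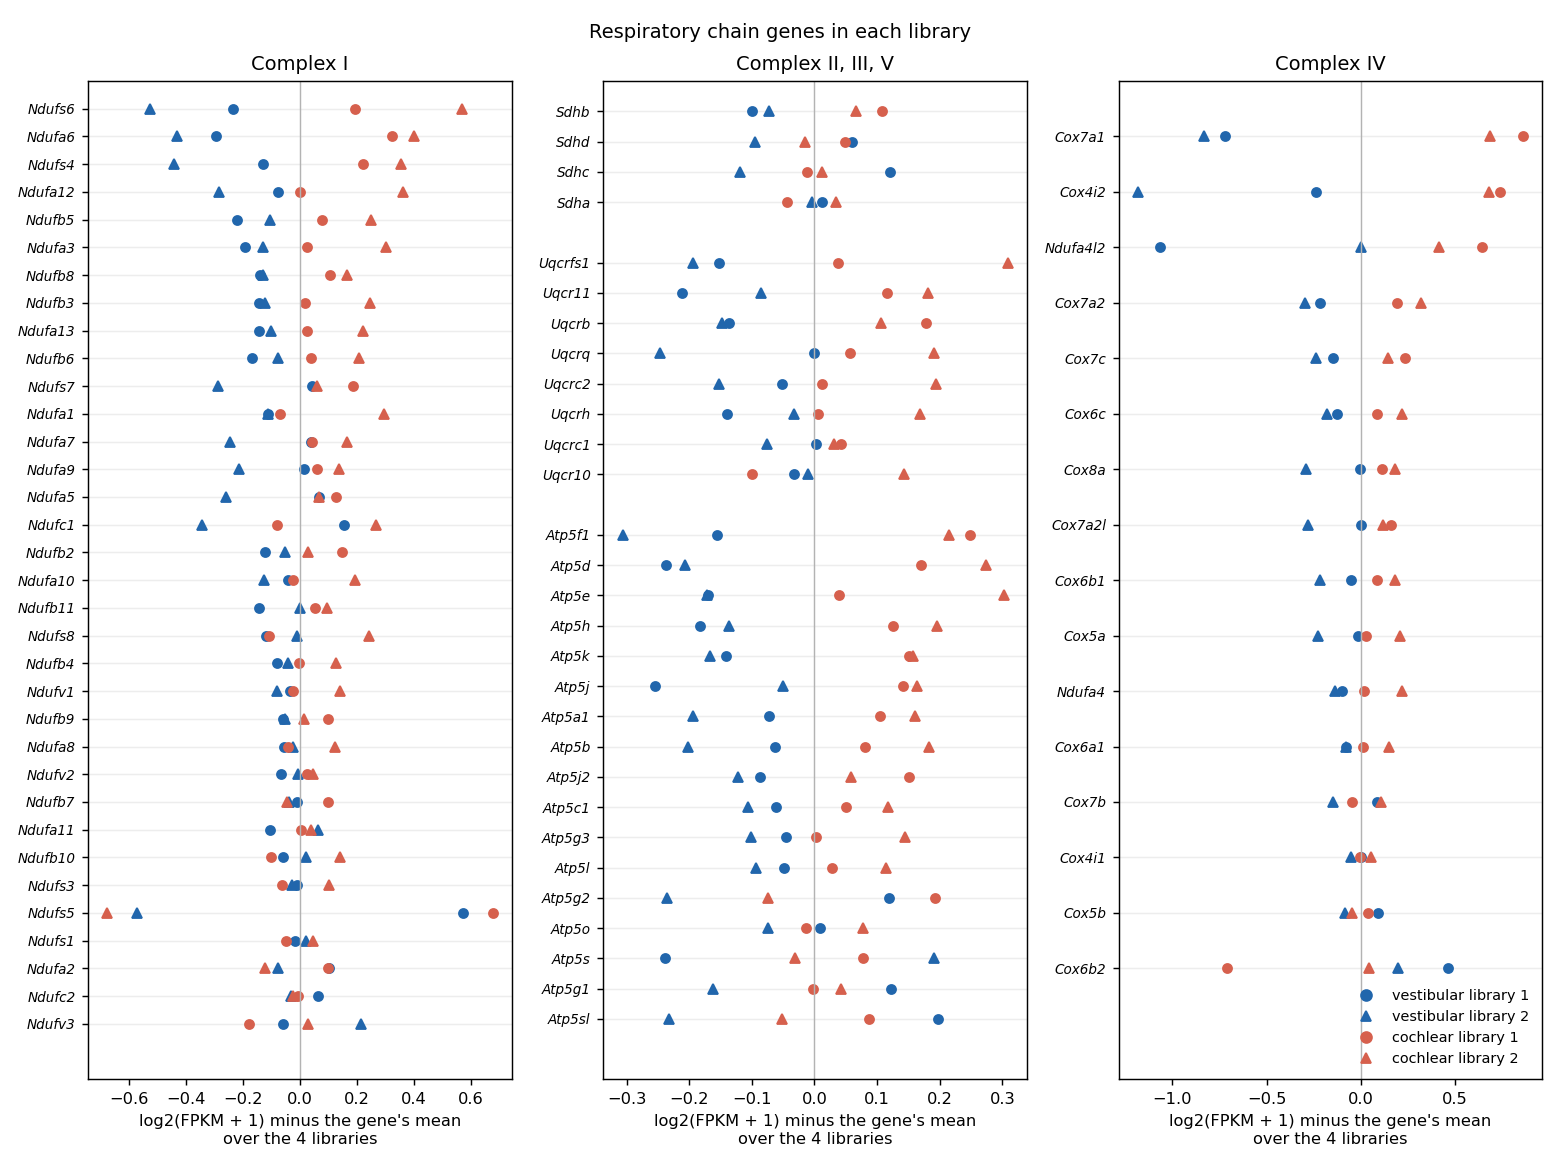
Each row is a respiratory chain gene that passed the filter (1 is not shown) and each symbol a library, placed at its log2(FPKM + 1) minus the mean of that gene over the 4 libraries; the 3 panels have different horizontal scales. Cochlear symbols (red) lie to the right of vestibular symbols (blue) for most genes of complexes I, III, IV and V, with Cox6b2 the 1 gene where both vestibular libraries lie to the right of both cochlear ones.

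**Figure D2:**
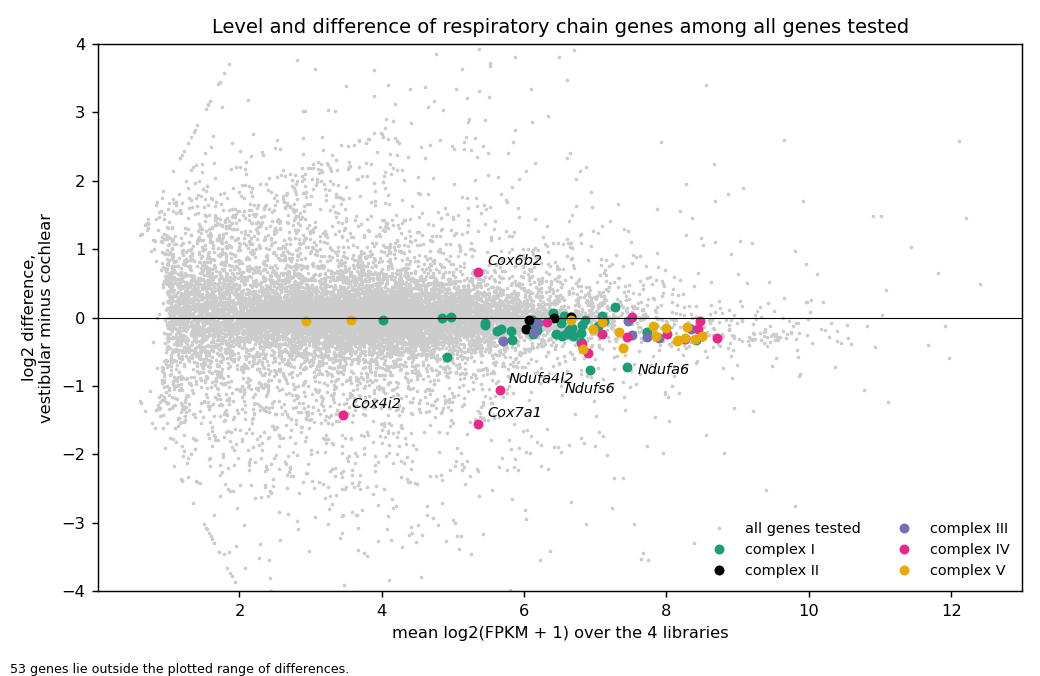
The horizontal axis is the mean log2(FPKM + 1) over the 4 libraries and the vertical axis the log2 difference, vestibular minus cochlear; grey points are all genes tested and coloured points are respiratory chain genes by complex. Most members form a narrow band just below 0 at high levels, with Cox7a1, Cox4i2 and Ndufa4l2 lower and Cox6b2 above it.

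Complex I was measured by 35 members, with mean FPKM from 15.2 for Ndufa11 to 343 for Ndufa3, both accessory subunits. Both cochlear libraries lay above both vestibular ones in 21 of 35 (60%), against 28.4% of all genes tested, and the median log2 difference was -0.17. The 7 core subunits carry the flavin, the iron-sulfur clusters and the quinone site. Their median log2 difference was -0.07, with 3 of 7 (42.9%) apart on the cochlear side, nearer to the share of all genes tested. The 28 accessory subunits, which surround that core, had a median log2 difference of -0.19, with 18 of 28 (64.3%) apart on the cochlear side. The difference between core and accessory subunits was not tested.

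Ndufa6, a small accessory subunit on the matrix arm (chr15:82350140-82354322, GRCm38), had 141 and 128 FPKM in the vestibular pair, against 217 and 229 in the cochlear pair. Both cochlear libraries were well above both vestibular ones, with a log2 difference of -0.72 (SE 0.12, limma adjusted p = 0.134). Ndufs6, a zinc-binding accessory subunit needed to complete the matrix arm (chr13:73319838-73328542), had 102 and 83.7 FPKM in the vestibular pair, against 138 and 179 in the cochlear pair. Its groups did not overlap either, but the cochlear libraries were far apart, and the log2 difference was -0.76 (SE 0.20, limma adjusted p = 0.216). Ndufs6 overlaps Mrpl36 on the other strand, and whether the counting used strand is not given in the sources used here. Ndufs4, another matrix arm subunit whose loss gives mice a Leigh-like disease, was picked out after its values were seen. It had 26.6 and 21.2 FPKM in the vestibular pair, against 34.2 and 37.6 in the cochlear pair, a log2 difference of -0.57 (limma adjusted p = 0.222).

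Some core subunits were named after their values were seen. Ndufv1, which binds NADH and the flavin, had 41.8 and 40.4 FPKM in the vestibular pair, against 42.1 and 47.3 in the cochlear pair. Ndufs1, which carries several iron-sulfur clusters, had 30.1 and 30.9 FPKM in the vestibular pair, against 29.4 and 31.5 in the cochlear pair. The groups overlapped for Ndufs1 and were barely apart for Ndufv1. Among accessory subunits, Ndufb8 of the membrane arm, whose protein is often blotted as a marker of assembled complex I, had 92.2 and 92.9 FPKM in the vestibular pair, against 109 and 114 in the cochlear pair. Ndufv3, at the tip of the matrix arm, had the most positive log2 difference of the complex, 0.15 (SE 0.16), with 147 and 178 FPKM in the vestibular pair, against 135 and 156 in the cochlear pair. The replicates of Ndufb8 were close and the groups apart, whereas those of Ndufv3 overlapped.

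The most abundant complex I genes had log2 differences of -0.33 for Ndufa3 and -0.21 for Ndufa7. Ndufa3 had 297 and 310 FPKM in the vestibular pair, against 346 and 419 in the cochlear pair. Ndufa7 had 216 and 177 FPKM in the vestibular pair, against 217 and 236 in the cochlear pair. Their groups did not overlap, but vestibular library 1 and cochlear library 1 were nearly level for Ndufa7. The log2 difference of Ndufa3 was -0.19 without cochlear library 2, and that of Ndufa7 was -0.066 without vestibular library 2 and -0.35 without vestibular library 1. Ndufs5, an accessory subunit on the intermembrane side, was picked out after its values were seen because it split by replicate number rather than by group. It had 41.6 and 18.3 FPKM in the vestibular pair, against 44.8 and 16.9 in the cochlear pair. Its near-identical copy BC002163 had 29.3 and 39.0 FPKM in the vestibular pair, against 30.1 and 71.1 in the cochlear pair, so it was higher where Ndufs5 was lower within each group. Summed over the copies, the level was 71.0 and 57.3 FPKM in the vestibular pair, against 74.9 and 88.0 in the cochlear pair, and the division of reads between them is uncertain.

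Complex II, succinate dehydrogenase, had 1 of its 4 genes (25%) apart on the cochlear side, close to the 28.4% of all genes tested. Its median log2 difference was -0.02, nearest to that of all genes tested. How its values differ from those of the other complexes was not tested. Complex II differs from the other complexes in having no mitochondrially encoded subunit and in being an enzyme of the tricarboxylic acid cycle. Sdha, the flavoprotein that oxidizes succinate, had 101 and 99.7 FPKM in the vestibular pair, against 96.9 and 102 in the cochlear pair. Sdhc, a membrane anchor, had 92.1 and 77.9 FPKM in the vestibular pair, against 83.9 and 85.4 in the cochlear pair. Sdhd, the other anchor, had 69.3 and 62.2 FPKM in the vestibular pair, against 68.7 and 65.7 in the cochlear pair. The groups of these 3 genes overlapped, and their log2 differences lay between -0.03 and 0.01, with signs that turned under other scalings or without single libraries. Sdhb, the iron-sulfur subunit, had 59.6 and 60.7 FPKM in the vestibular pair, against 68.9 and 66.9 in the cochlear pair, a log2 difference of -0.17 (SE 0.09, limma adjusted p = 0.402). It was the 1 complex II gene whose groups did not overlap.

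Complex III had 7 of its 8 members (87.5%) apart on the cochlear side, against 28.4% of all genes tested. None of the 8 was at an unadjusted limma p under 0.05, where 10.6% of all genes tested were on the cochlear side. The median log2 difference of complex III was -0.23. The median was -0.15 without cochlear library 2. Uqcrfs1, the Rieske iron-sulfur protein that accepts electrons from coenzyme Q, had 45.8 and 44.5 FPKM in the vestibular pair, against 52.4 and 63.4 in the cochlear pair. Its log2 difference was -0.35 (SE 0.14, limma adjusted p = 0.303), and it was -0.21 without cochlear library 2. Uqcrb, a small subunit near the quinone site, had 192 and 191 FPKM in the vestibular pair, against 239 and 228 in the cochlear pair. The libraries of each group were nearly level for Uqcrb, with a log2 difference of -0.28 (SE 0.11, limma adjusted p = 0.290). Uqcr11, whose promoter is printed above, had 204 and 223 FPKM in the vestibular pair, against 257 and 269 in the cochlear pair. Uqcrh, the acidic hinge protein that helps cytochrome c bind, was the most abundant, with 293 and 315 FPKM in the vestibular pair, against 324 and 362 in the cochlear pair. Both genes were higher in each cochlear library than in either vestibular one. Uqcr10, a small subunit named after its values were seen, was the 1 member whose groups overlapped, with 170 and 173 FPKM in the vestibular pair, against 162 and 192 in the cochlear pair. The core proteins Uqcrc1 and Uqcrc2, named after their values were seen, were less abundant than the small subunits. Uqcrc1 had 72.2 and 68.3 FPKM in the vestibular pair, against 74.2 and 73.6 in the cochlear pair, so its groups were barely apart.

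Complex IV, cytochrome c oxidase, held the gene with the largest log2 difference, Cox7a1, and the most abundant gene, Cox8a. It is also the complex with most isoform pairs, in which a widely expressed gene has a relative used in muscle, testis, lung or low oxygen. The rule found 20 complex IV genes, counting Ndufa4 and Ndufa4l2 here because NDUFA4 is now placed in this complex, and 16 passed the filter. Both cochlear libraries were above both vestibular ones in 12 of 16 (75%), against 28.4% of all genes tested. The median log2 difference was -0.27, and it was -0.17 without vestibular library 2. Of the 11 general subunits, 8 were apart on the cochlear side, with a median log2 difference of -0.24.

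Cox7a1, the heart and skeletal muscle form of subunit VIIa (chr7:30184144-30186078, GRCm38), had 23.8 and 22.0 FPKM in the vestibular pair, against 73.5 and 64.9 in the cochlear pair. The cochlear mean was 3.02 times the vestibular mean, and the replicates of each group were close. The log2 difference was -1.55 (SE 0.12), with an unadjusted limma p of 0.000304 and an adjusted p of 0.0744, the smallest among members but not past the adjusted threshold. Its widely expressed relative Cox7a2 had 101 and 95.7 FPKM in the vestibular pair, against 135 and 148 in the cochlear pair, a log2 difference of -0.51 (SE 0.11, limma adjusted p = 0.186). Cox7a2l, which resembles these subunits but joins complexes III and IV into supercomplexes and is not itself a regular subunit, had 173 and 142 FPKM in the vestibular pair, against 193 and 187 in the cochlear pair. Of the summed FPKM of the 3 genes, Cox7a1 made up 7.995% and 8.48% in the vestibular pair, against 18.3% and 16.2% in the cochlear pair. The share of Cox7a2 was level, at 35.4% in the mean of the vestibular and 35.2% in the mean of the cochlear libraries.

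Muscle markers were read beside this muscle isoform. Of 14 skeletal and cardiac muscle markers, 2 passed the filter on low values, and the list summed to 7.74 and 2.63 FPKM in the vestibular pair, against 42.5 and 27.8 in the cochlear pair. Mb, the oxygen-binding protein myoglobin, had 0.494 and 0.248 FPKM in the vestibular pair, against 25.0 and 17.2 in the cochlear pair. Tnnt2, cardiac troponin T, had 1.91 and 0.627 FPKM in the vestibular pair, against 16.1 and 7.61 in the cochlear pair. Both were higher in the cochlear libraries, as Cox7a1 was, and their part in its values was not tested. The muscle regulators Myod1 and Myog and the cardiac actin Actc1 were listed at 0 in all 4 libraries, and the creatine kinase Ckm was at 0.076 or less. The other muscle isoforms were low as well: Cox6a2 had 0.929 and 1.67 FPKM in the vestibular pair, against 0.614 and 0.40 in the cochlear pair, and Cox8b was listed at 0 in vestibular library 1 and cochlear library 2 and had 1.21 and 2.38 FPKM in the others. Of 7 markers of brown fat, another tissue rich in Cox7a1, 4 passed the filter. Of these, 2 were apart on the cochlear side, where 28.4% of all genes tested were. Adipoq had 0 and 0 FPKM in the vestibular pair, against 4.15 and 0.088 in the cochlear pair, so it rested on cochlear library 1. Prdm16 was nearly level, with 2.59 and 2.44 in the vestibular pair, against 2.67 and 3.07 in the cochlear pair. The defining Ucp1 and the lipid gene Elovl3 were listed at 0 in all 4 libraries. Dio2, a thyroid hormone deiodinase that other cells also express, had 217 and 156 FPKM in the vestibular pair, against 97.4 and 166 in the cochlear pair. The whole list summed to 234 and 168 FPKM in the vestibular pair, against 127 and 170 in the cochlear pair.

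Cox4i2, the lung and low-oxygen form of subunit IV (chr2:152754173-152765037, GRCm38), had 8.27 and 3.81 FPKM in the vestibular pair, against 17.3 and 16.5 in the cochlear pair. The cochlear libraries were level and both above the vestibular ones, which were well apart, and the log2 difference was -1.42 (SE 0.36, limma adjusted p = 0.215). It was -0.95 without vestibular library 2. The widely expressed Cox4i1 had a log2 difference of -0.05 (SE 0.12) and overlapping groups, with 353 and 341 FPKM in the vestibular pair, against 352 and 366 in the cochlear pair. Cox4i2 therefore made up a small part of the summed level of the 2 genes in every library, 2.29% and 1.11% in the vestibular pair, against 4.68% and 4.31% in the cochlear pair.

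Ndufa4l2, a relative of Ndufa4 known as a target of the hypoxia-inducible factor HIF-1 (chr10:127514967-127517154, GRCm38), had 23.1 and 49.5 FPKM in the vestibular pair, against 78.0 and 66.3 in the cochlear pair. Its groups did not overlap, but the vestibular libraries were far apart, and the log2 difference was -1.06 (SE 0.41, limma adjusted p = 0.298). It was -0.53 without vestibular library 1 and -1.60 without vestibular library 2. Ndufa4l2 overlaps Shmt2 on the other strand. Ndufa4 itself had 238 and 232 FPKM in the vestibular pair, against 258 and 298 in the cochlear pair. The share of Ndufa4l2 in the summed level of the 2 genes was 8.86% and 17.6% in the vestibular pair, against 23.2% and 18.2% in the cochlear pair.

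Cox6b2, the testis form of subunit VIb (chr7:4751792-4753094, GRCm38), went the other way. It had 55.3 and 45.9 FPKM in the vestibular pair, against 24.0 and 41.1 in the cochlear pair. Both vestibular libraries were above both cochlear ones, though vestibular library 2 and cochlear library 2 were close, and the log2 difference was 0.67 (SE 0.31, limma adjusted p = 0.352). It was 0.29 without cochlear library 1 and 1.04 without cochlear library 2. The widely expressed Cox6b1 had 348 and 310 FPKM in the vestibular pair, against 382 and 409 in the cochlear pair, and Cox6b2 made up 13.7% and 12.9% of their summed level in the vestibular pair, against 5.89% and 9.13% in the cochlear pair. Of 7 male germ cell markers none passed the filter on low values, and the sperm protamines Prm1 and Prm2 were listed at 0 in all 4 libraries. The other testis forms, Cox7b2 and Cox8c, were listed at 0 in all 4 libraries.

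Among the general complex IV subunits, Cox8a was the most abundant gene of the whole chain, with 417 and 341 FPKM in the vestibular pair, against 452 and 473 in the cochlear pair. Cox6a1 had 327 and 327 FPKM in the vestibular pair, against 348 and 383 in the cochlear pair. Cox7b had 83.7 and 71.0 FPKM in the vestibular pair, against 76.2 and 84.9 in the cochlear pair, so its groups overlapped, and its sign turned without vestibular library 2 or cochlear library 2. Cox6a1 was higher in each cochlear library than in either vestibular one. Cox5a and Cox5b, subunits of the oxidase were named after their values were seen: Cox5a had 134 and 116 FPKM in the vestibular pair, against 138 and 157 in the cochlear pair, and Cox5b had 195 and 172, against 188 and 177. The groups of Cox5b overlapped. Cox7c, another small subunit picked out after its values were seen, had 101 and 94.98 FPKM in the vestibular pair, against 132 and 124 in the cochlear pair, a log2 difference of -0.38 (SE 0.11, limma adjusted p = 0.226).

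**Figure D3:**
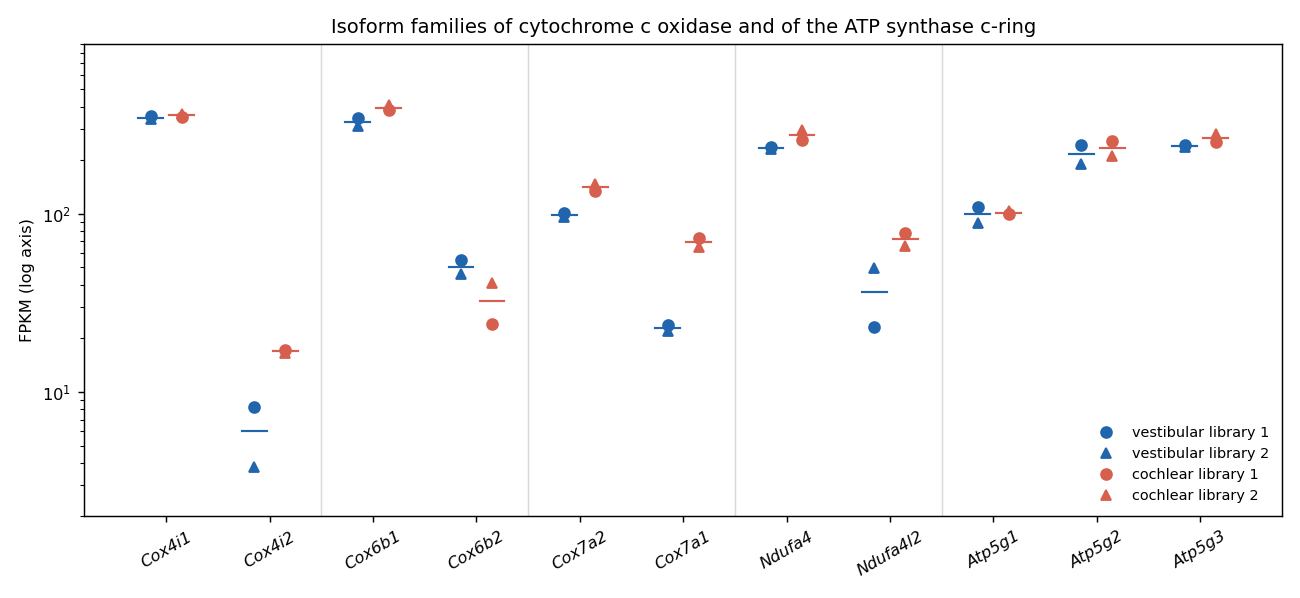
FPKM on a log axis for gene families of complex IV and for the 3 genes of the ATP synthase c-ring; each symbol is a library and each short line the mean of 2 libraries. Cox7a1, Cox4i2 and Ndufa4l2 lie higher in the cochlear libraries (red) and Cox6b2 lower, while the means of Cox4i1 and of Atp5g1 to Atp5g3 lie close together.

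Complex V, the ATP synthase, had a higher cochlear mean in all 17 members. Of the 17, 12 (70.6%) were apart on the cochlear side, against 28.4% of all genes tested, and the median log2 difference was -0.21. By part, the groups were apart in 5 of 5 genes of the catalytic head and central stalk, 3 of 4 of the peripheral stalk, 3 of 3 of the other membrane subunits and 1 of 3 of the c-ring. The 2 members known not to be subunits, Atp5s (mean 6.70 FPKM) and Atp5sl (mean 11.0 FPKM), were low and overlapped between groups.

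Atp5b, the catalytic beta subunit, had 344 and 312 FPKM in the vestibular pair, against 380 and 408 in the cochlear pair. Atp5d, the delta subunit of the central stalk, had 142 and 145 FPKM in the vestibular pair, against 188 and 203 in the cochlear pair. Its log2 difference was -0.44 (SE 0.11, limma adjusted p = 0.204), and its replicates were close in both groups. Atp5f1, subunit b of the peripheral stalk that holds the head still, had 101 and 90.6 FPKM in the vestibular pair, against 133 and 130 in the cochlear pair, a log2 difference of -0.46 (SE 0.11, limma adjusted p = 0.204). Atp5k, subunit e, which helps the synthase form dimers and whose promoter is printed above, had 306 and 300 FPKM in the vestibular pair, against 374 and 376 in the cochlear pair. The replicates of Atp5k were nearly level in both groups, with a log2 difference of -0.31 (SE 0.11, limma adjusted p = 0.283).

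Further stalk and head genes were named after their values were seen. Atp5h, subunit d of the peripheral stalk, had 252 and 260 FPKM in the vestibular pair, against 312 and 328 in the cochlear pair, a log2 difference of -0.32 (SE 0.11, limma adjusted p = 0.276). Atp5j, subunit F6 of the same stalk, had 255 and 294 FPKM in the vestibular pair, against 336 and 341 in the cochlear pair. Atp5e, the epsilon subunit of the central stalk, had 252 and 252 FPKM in the vestibular pair, against 292 and 350 in the cochlear pair. All 3 had both cochlear libraries above both vestibular ones. Atp5o, the stalk subunit that confers oligomycin sensitivity, had 136 and 128 FPKM in the vestibular pair, against 134 and 143 in the cochlear pair, and its groups overlapped.

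The c-ring is the rotor through which protons pass, and Atp5g1, Atp5g2 and Atp5g3 encode the same mature subunit c with different import sequences. Atp5g1 had 109 and 89.4 FPKM in the vestibular pair, against 99.9 and 103 in the cochlear pair. Atp5g2 had 243 and 190 FPKM in the vestibular pair, against 256 and 213 in the cochlear pair. Atp5g3 had 245 and 236 FPKM in the vestibular pair, against 254 and 280 in the cochlear pair. The groups overlapped for Atp5g1 and Atp5g2 and lay apart for Atp5g3, and no log2 difference of the 3 was beyond -0.15. Their mean shares of the summed level were 17.8%, 38.8% and 43.4% in vestibular and 16.9%, 38.9% and 44.3% in cochlear cultures.

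Summed FPKM gave the same picture per complex. Complex I summed to 3211 and 3079 FPKM in the vestibular pair, against 3477 and 3793 in the cochlear pair, 1.16 times as much in the cochlear mean. Complex II summed to 322 and 300 FPKM in the vestibular pair, against 319 and 320 in the cochlear pair, a ratio of 1.03. Complex III summed to 1227 and 1231 FPKM in the vestibular pair, against 1369 and 1477 in the cochlear pair, a ratio of 1.16. For these sums the cochlear libraries lay above the vestibular ones in complexes I and III and between them in complex II. Complex IV summed to 2861 and 2636 FPKM in the vestibular pair, against 3174 and 3351 in the cochlear pair, and complex V to 3191 and 3069 in the vestibular pair, against 3648 and 3786 in the cochlear pair, both a ratio of 1.19. All 84 members together made up 2.08% and 2.01% of the summed FPKM of the vestibular pair, against 2.32% and 2.65% in the cochlear pair.

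**Figure D4:**
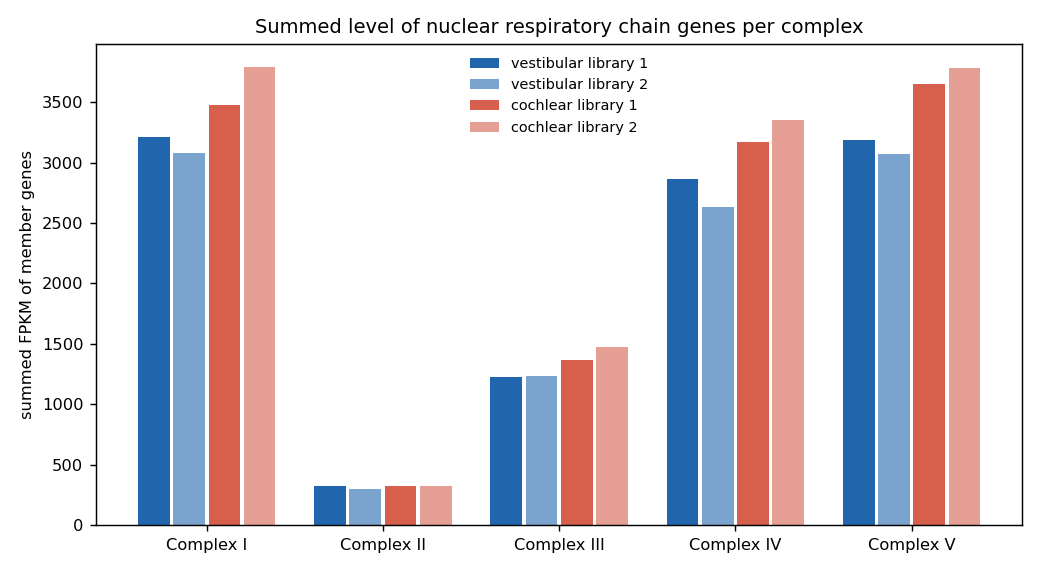
Bars give the summed FPKM of the member genes of each complex in each of the 4 libraries. Both cochlear bars exceed both vestibular bars for complexes I, III, IV and V, while complex II stays between 300 and 322 FPKM in all 4 libraries.

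Subunits that the symbol rule missed and genes around the chain were read from the same fit, and none in these lists passed the adjusted threshold. Of 8 nuclear subunits and associated proteins with other names, 6 (75%) were apart on the cochlear side, against 28.4% of all genes tested. Their median log2 difference was -0.26. Cytochrome c1, encoded by Cyc1 and named after its values were seen, had 60.5 and 56.1 FPKM in the vestibular pair, against 66.5 and 68.9 in the cochlear pair. Of 17 genes for electron carriers and coenzyme Q synthesis, 3 were apart on the cochlear and 2 on the vestibular side (median log2 difference -0.11). These shares, 17.6% and 11.8%, were below the 28.4% and 26.9% of all genes tested. Cytochrome c itself, Cycs, had 19.5 and 15.3 FPKM in the vestibular pair, against 21.6 and 23.9 in the cochlear pair.

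The genes that build and regulate the complexes lay nearer to the background on the cochlear side. Over all genes tested, 28.4% were apart on the cochlear and 26.9% on the vestibular side. Of 43 assembly factors, 15 were apart on the cochlear and 7 on the vestibular side, with a median log2 difference of -0.04. Tmem70, needed to assemble the ATP synthase, had 17.0 and 18.6 FPKM in the vestibular pair, against 28.7 and 29.9 in the cochlear pair (log2 difference -0.69, SE 0.11, limma adjusted p = 0.132). Of 15 regulators of mitochondrial biogenesis and mitochondrial DNA expression, 4 were apart on each side, with a median log2 difference of -0.01. Among the factors whose letters were searched in the promoters, Nrf1 had 9.15 and 8.23 FPKM in the vestibular pair, against 9.35 and 9.20 in the cochlear pair. Gabpa had 15.6 and 16.1 in the vestibular pair, against 13.2 and 13.4 in the cochlear pair. Yy1 had 26.2 and 26.2 in the vestibular pair, against 29.8 and 35.3 in the cochlear pair (log2 difference -0.30, SE 0.13, limma adjusted p = 0.322). Of 13 tricarboxylic acid cycle enzymes, 4 were apart on the cochlear and 3 on the vestibular side (median log2 difference -0.11), and citrate synthase, Cs, had 64.5 and 64.0 FPKM in the vestibular pair, against 77.7 and 79.0 in the cochlear pair. Of 20 membrane, import and chaperone genes, 6 (30%) were apart on the cochlear side and 0 on the vestibular side (median log2 difference -0.08). Their share was thus near the background on the cochlear side and below it on the vestibular side.

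Lists outside the mitochondrion were read beside the members. Of 25 cytosolic ribosomal protein genes, 19 (76%) were apart on the cochlear side and 1 (4%) on the vestibular side. Over all genes tested these shares were 28.4% and 26.9%. The median log2 difference of the ribosomal list was -0.26, beside -0.19 for the members. Its median log2 levels were 8.67 to 9.23 over the libraries, so most of its genes were abundant, and their transcript lengths were not read. Under quantile scaling 13 of the 25 were apart on the cochlear side, where 27.6% of all genes tested were. Without vestibular library 2 the ribosomal median was -0.13. Of 14 hypoxia-responsive genes, 10 (71.4%) were apart on the cochlear side, against 28.4% of all genes tested, with a median log2 difference of -0.71. At an unadjusted limma p under 0.05, 8 of the 14 were higher in cochlear cultures, where 10.6% of all genes tested were. Higd1a of this list also counts among the subunits with other names. Vegfa, the angiogenic factor, had 89.1 and 63.1 FPKM in the vestibular pair, against 222 and 283 in the cochlear pair. Egln1, an oxygen-sensing prolyl hydroxylase, had 33.5 and 33.1 FPKM in the vestibular pair, against 66.4 and 60.6 in the cochlear pair. Its relative Egln3, picked out after its values were seen, had 22.8 and 47.6 FPKM in the vestibular pair, against 108 and 90.0 in the cochlear pair. Egln3 had the same order of libraries as Ndufa4l2, but Vegfa, Egln1 and most other genes of the list did not. The median log2 difference of the 1713 genes averaging at least 50 FPKM was -0.006, beside -0.21 for the 68 members at that level. The part of the hypoxia response, or of a shift shared by short and abundant transcripts, in the respiratory chain values was not tested.

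**Figure D5:**
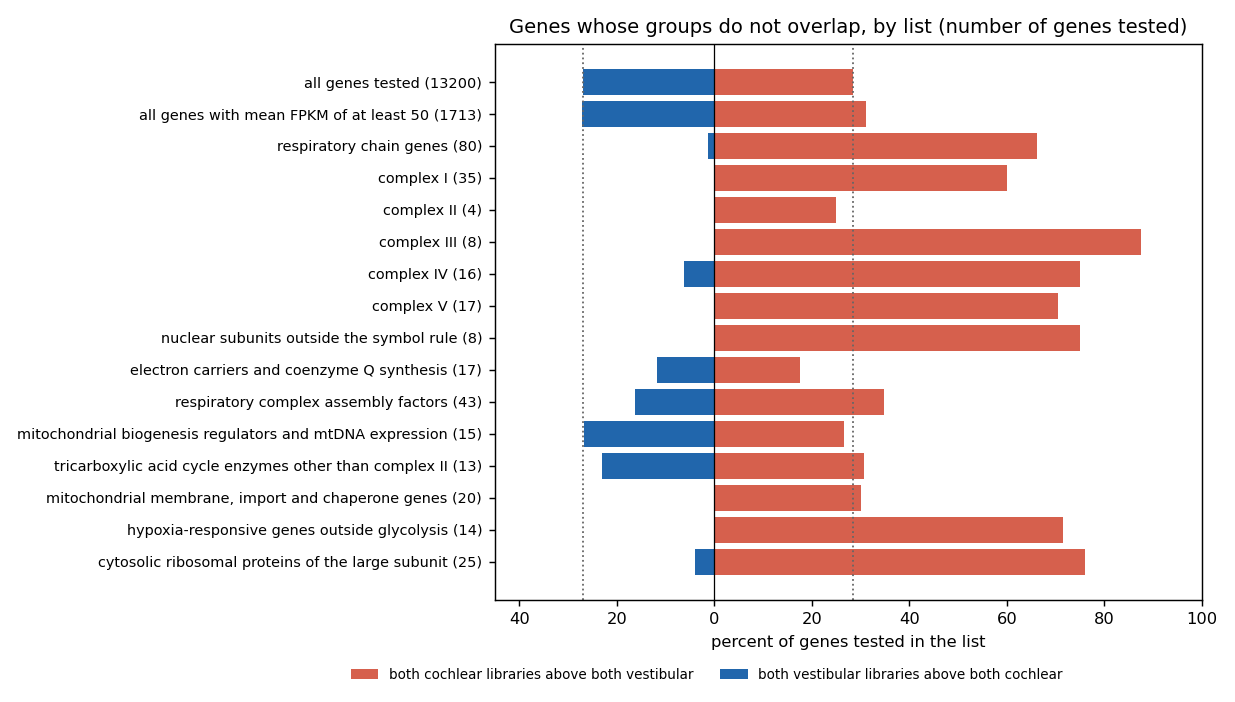
Bars give the percent of the genes tested in each list whose groups do not overlap, to the right where both cochlear libraries are above and to the left where both vestibular libraries are; dotted lines mark the shares over all genes tested, 28.4% and 26.9%. The members together, complexes I, III, IV and V, the subunits outside the symbol rule, the ribosomal proteins and the hypoxia-responsive genes extend furthest to the right. Their shares run from 60% for complex I to 87.5% for complex III. Biogenesis regulators and tricarboxylic acid cycle enzymes stay near both dotted lines, and assembly factors, at 34.9% and 16.3%, fall short of the left one.

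Several features that the symbol rule did not use were read for the members alone, so no share over all genes is given for them. Of the 84, 82 matched a GENCODE gene on GRCm38. The kept members had a median transcript length of 891.5 bases, taking the longest coding transcript of each gene, which may not be the one expressed here. Shorter transcripts had higher FPKM (Spearman rho -0.46 over 78 members) and slightly more negative log2 differences (rho 0.20 between length and difference), and more abundant members had slightly more negative differences (rho -0.24). These are descriptions over genes that share the same 4 libraries. Exons of 22 members overlap a coding gene on the other strand, and 21 members have a near-identical transcript elsewhere in the genome, so reads of those genes may be split or shared.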

How the data were processed

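Per the submitters' processing notes, reads were handled with Cuffdiff 2.2.1, SAMtools 0.1.18, TopHat2 2.1.1 and Bowtie2 2.2.8, and the build named is mm10, and per the labels' protocols total RNA was extracted with TRIzol and made into stranded mRNA libraries. The deposited values are FPKM, 1 value per gene symbol and library, per the file headers, made by the authors. Their settings, annotation, strand option and scaling between libraries were not given in the sources used here. Because FPKM is per length, another transcript model would give another value. An exact 0 may be a failed estimate, since Rpl26, a ribosomal gene, has 0 in all 4 libraries.

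From these values, genes averaging at least 1 FPKM were kept (13200 of 24346), log2(FPKM + 1) was taken, and the 2-sided limma test was run (limma 3.58.1, R 4.3.3, lmFit and eBayes with trend), with Benjamini-Hochberg adjustment over all genes kept. The prior degrees of freedom were 1.71. Groups were called apart where both values of one group exceeded both of the other. Counts, medians and sums over lists are descriptions without a test. Near-identical transcripts were found with BLAST+ 2.17.0 (at least 95% identity over 150 aligned bases) in GENCODE M21, and promoters are from RefSeq. Alternatives changed the pseudocount, the filter, the scaling, the trend, the replicate block and each library in turn.

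The members, the lists and the tests were chosen with earlier results of these data known. Values per library are given for the isoform families, complex II, the 2 most abundant members and the members with the largest differences or smallest p of each complex. In the lists around the chain, genes with the 2 highest means or the 2 smallest p-values could be named, and Nrf1 because its letters were searched. Member and pathway genes outside these rules are said to have been named or picked out after their values were seen. Remaining members are given by counts, and 1 result is not reported here.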

Additional observations from a re-analysis of the deposited data

How the results depend on the processing

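No respiratory chain gene passed the adjusted threshold under any alternative run. The count over all genes was 4; it was 2 with no filter on low values, 1 with a mean FPKM of at least 50 (an alternative added after the data were seen) and 0 to 0 without single libraries. With the replicate number as a replicate block it was 0, and members at an unadjusted p under 0.05 numbered 7; deviations of same-numbered libraries correlated at 0.0432, so the numbers were not taken as pairs, and no call of a member changed. Over all genes tested, 1887 were under an unadjusted limma p of 0.05 with the block and 2398 without it, in either direction. The median log2 difference of the members ranged from -0.24 to -0.15 without single libraries. Members apart on the vestibular side numbered 4 to 9 without single libraries, 2 with no filter and 0 with the mean of at least 50. The shares of all genes tested on that side were 36.5% to 40.2%, 25.5% and 27.2% under these settings. Members apart on the cochlear side numbered 47 under median or quantile scaling and 56 under scaling to the library total. The shares of all genes tested on that side were 26.4% under median, 27.6% under quantile and 31.5% under total scaling. Total scaling moved the log2 difference of every complex's sum by the same amount, to -0.26 for complexes I and III, -0.092 for complex II and -0.30 for complexes IV and V; without vestibular library 2, the sum of complex II was 0.011. Signs turned in genes whose groups overlapped. Without single libraries, the log2 difference ranged from -0.18 to 0.10 for Atp5g1, from -0.29 to 0.060 for Atp5g2, from -0.18 to 0.057 for Cox7b, from -0.029 to 0.048 for Sdha, from -0.12 to 0.12 for Sdhc and from -0.11 to 0.044 for Sdhd. It was -0.043 for Sdha and -0.052 for Sdhc with total scaling, and -0.0093 and -0.043 with quantile scaling. The cause was not tested. With the fragments per library unknown, no counting error can be given.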
